A study of Caenorhabditis elegans with 2 samples.

Results

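The 9 genes described here encode semaphorins, plexins, ephrins and an ephrin receptor of Caenorhabditis elegans: the semaphorin genes mab-20, smp-1 and smp-2, the plexin genes plx-1 and plx-2, the ephrin genes vab-2, efn-2 and efn-3, and the ephrin receptor gene vab-1. They were taken by name, under a rule that uses no measured value, though the choice was made with earlier results of these data known. They are 9 of 19973 nuclear protein-coding genes of the Ensembl annotation. The data are chromatin immunoprecipitation sequencing peaks for MAB-5, a Hox protein of the posterior body, tagged with enhanced green fluorescent protein (eGFP). There is 1 group of 2 biological replicates, each made from whole second-stage (L2) larvae, male and female animals pooled, of strain OP27. The strain carries the unc-119(ed3) mutation on chromosome III and the integrated insertion wgIs27 targeting mab-5. The age in hours is listed as unknown. The antibody is listed as mab-5, while the sample descriptions give ChIP-seq against eGFP-mab-5, the tagged protein. The lists describe this group alone, with no second genotype, stage or control sample, so conditions cannot be compared, and no value below comes from a test.

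Semaphorins are guidance proteins, secreted or set in the membrane, that bind plexins, receptors that change the cytoskeleton and adhesion of the responding cell. Ephrins are membrane-anchored ligands of Eph receptor tyrosine kinases, so that signalling needs contact between cells. In C. elegans both systems keep cells apart or in place during neuroblast movement, closure of the epidermis, axon growth and formation of the sensory rays of the male tail. SMP-1 and SMP-2 are transmembrane ligands of PLX-1, and MAB-20 is a secreted ligand of PLX-2. The ephrins VAB-2 (also called EFN-1), EFN-2 and EFN-3 are ligands of VAB-1.

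Of the 9 genes, 4 had a MAB-5 peak nearer to their own start than to that of any other gene: plx-1 and vab-2 upstream, and smp-1 and vab-1 in introns. These 4 genes carried 5 such peaks, 2 of them in vab-1. Over all 19973 genes, 9.43% had a peak by this nearest-start criterion. In the promoter window, from 2000 bp before a gene start to 500 bp after it, 1 of the 9 had a peak, against 9.59%. The peaks are those of the optimal list of the irreproducible discovery rate (IDR), a procedure based on how far peak ranks recur between replicates. This list holds 2197 peaks, 2174 of them on nuclear chromosomes, and all 2197 were the pooled peaks of highest score. A listed peak need not rank alike in both replicates. The semaphorin gene mab-20, the semaphorin gene smp-2 and the ephrin gene efn-2 had no IDR summit in the gene or within 20 kb of its start. Such a summit was found for 51.1% of all 19973 genes. The plexin gene plx-2 and the ephrin gene efn-3 had 2 each, all lying 16453 to 19590 bp from the gene start and nearest to other genes.

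The sequences around the summits upstream of plx-1 and vab-2 are shown because they hold a Hox-PBC composite, the kind of element that a Hox protein and a PBC homeodomain partner bind together. It was searched as TGATNNAT on both strands within 100 bp of the summit. Both are the plus strand of ce11, 5′ to 3′, and capitals mark the composite matches. The plx-1 window is chrIV:957861-958061 and the vab-2 window is chrIV:3768828-3769028.
plx-1: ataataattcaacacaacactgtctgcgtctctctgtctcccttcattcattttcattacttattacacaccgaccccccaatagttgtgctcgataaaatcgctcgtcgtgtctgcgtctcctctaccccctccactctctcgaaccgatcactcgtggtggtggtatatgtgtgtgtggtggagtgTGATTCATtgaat
vab-2: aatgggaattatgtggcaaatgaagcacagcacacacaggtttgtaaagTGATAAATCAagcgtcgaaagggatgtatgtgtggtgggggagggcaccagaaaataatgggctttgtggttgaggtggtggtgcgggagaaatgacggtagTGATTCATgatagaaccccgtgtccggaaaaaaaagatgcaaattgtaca

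The plx-1 window held 1 composite, TGATTCAT, centred 91 bp from the summit towards the gene. The vab-2 window held 3. TGATAAAT on the plus strand and TGATTTAT on the minus strand overlap each other, and together they make up the longer stretch in capitals. The remaining match, TGATTCAT, has the same 8 bases as the match at plx-1.

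The windows around both intronic summits of vab-1 are shown for contrast, since they hold no composite. They also hold no TAATTA, the core bound by many Hox homeodomains, and no TGACAG, bound by the MEIS class of Hox partners, so neither has capitals. They are the plus strand of ce11 at chrII:4575670-4575870 and chrII:4579579-4579779, and vab-1 itself lies on the plus strand.
vab-1, intron 2: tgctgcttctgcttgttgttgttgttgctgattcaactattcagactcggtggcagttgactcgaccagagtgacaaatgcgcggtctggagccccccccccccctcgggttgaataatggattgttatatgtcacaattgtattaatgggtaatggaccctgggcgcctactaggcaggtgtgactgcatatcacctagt
vab-1, intron 4: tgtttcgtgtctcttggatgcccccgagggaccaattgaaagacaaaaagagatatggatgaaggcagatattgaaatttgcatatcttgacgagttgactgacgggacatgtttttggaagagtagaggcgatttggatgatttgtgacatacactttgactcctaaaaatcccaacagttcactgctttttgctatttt

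Of the 5 peaks nearest to 1 of the 9 genes, 3 held a composite, those of plx-1, vab-2 and smp-1, against 21.8% of all 2174 nuclear IDR summits and 17.4% of the 29976 nuclear summits in the pooled relaxed list. The smp-1 match was centred 49 bp upstream of the summit. The 5 peaks nearest to other genes held none, so the count over all 10 peaks was 3 (30%, against the same 21.8%). With 50 bp on each side of the summit the count was 1 of the 10, at vab-2 through TGATTTAT on the minus strand. The share of all nuclear IDR summits was then 14.4%. TAATTA was found at 0 of the 10 peaks, at 5.01% of nuclear IDR summits and at 8.01% of nuclear pooled relaxed summits. TGACAG was found at 1 of the 10, the nearer of the peaks counted for efn-3. Its share was 8.56% of nuclear IDR summits and 7.22% of nuclear pooled relaxed summits. A match of letters is a description of the window and does not show which protein was recovered there.

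**Figure D1:**
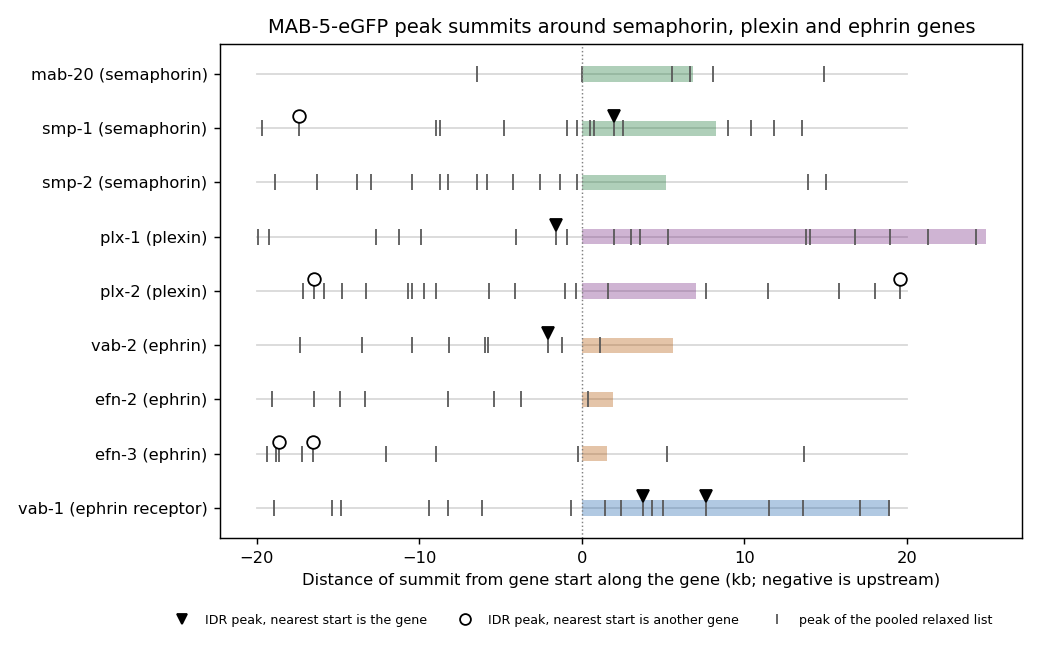
Peak summits by distance from the start of each gene in kb (negative is upstream), with the gene body as a coloured bar. Filled triangles are IDR peaks whose nearest gene start is the gene itself, open circles are IDR peaks nearest to another gene, and ticks are peaks of the pooled relaxed list. The triangles stand at plx-1, vab-2, smp-1 and vab-1, and mab-20, smp-2 and efn-2 have ticks only.

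A peak's strength is given as the authors' signal score, which has no stated scale in the sources used here, and as its rank by that score. The IDR score is 1 pooled value with no replicate error. Scores of different lists are on different scales, so replicates are compared by rank in their own relaxed lists of 30000 peaks each, where rank 1 is the strongest. Since the larvae were taken whole, strong recovery in few cells and weak recovery in many cannot be told apart.

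Of the semaphorin genes, smp-1 (WBGene00004889, chrI:14807462-14815753, plus strand) had a peak in its first intron. It lay at chrI:14809304-14809647 with its summit 2014 bp downstream of the gene start, in a 2857 bp intron. Its signal was 41.0, which ranked 1277 of the 2197 IDR peaks. It scored 17.3 in replicate 1 (rank 1340) and 21.5 in replicate 2 (rank 1671), the closest pair of ranks at any of the 10 peaks. A further IDR peak, 17370 bp upstream of smp-1, lay 152 bp upstream of uev-1, a gene for a ubiquitin-conjugating enzyme variant. It also fell in the promoter windows of hinf-1 and F39B2.3 (signal 33.2, ranks 1716 and 2857 in replicates 1 and 2).

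The semaphorin genes mab-20 and smp-2 had peaks only in the relaxed lists. For mab-20 (WBGene00003111, chrI:1644588-1651457, minus strand), whose secreted product acts in epidermal shape and in keeping male rays apart, the strongest pooled peak lay 15 bp inside the gene start, in an exon outside the coding sequence. Its summit also fell in the promoter window of Y71G12B.18, the next gene upstream. The peak scored 16.4 in the pooled list (rank 5158), 5.47 in replicate 1 (rank 9230) and 11.7 in replicate 2 (rank 4502). The mab-20 locus held 6 pooled peaks, the fewest of the 9, and the nearest IDR summit lay 25227 bp from the start of mab-20. For smp-2 (WBGene00004890, chrI:3666490-3671700, minus strand) the strongest pooled peak lay 4227 bp upstream, in the 8479 bp between it and ftn-2. That peak scored 24.4 in the pooled list (rank 2954), 8.40 in replicate 1 (rank 4437) and 17.1 in replicate 2 (rank 2504). Its pooled rank was below the 2197 IDR peaks, and it was found in both replicates.

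Among the plexin genes, plx-1 (WBGene00004047, chrIV:959521-984395, plus strand), the receptor gene for SMP-1 and SMP-2, was the only member whose promoter window held an IDR summit. That window covers the 2000 bp before the gene start and the 500 bp after it. The peak, at chrIV:957789-958132, had its summit 1560 bp upstream, in the 13867 bp that separate plx-1 from faah-3, and in the window of no other gene. Its signal was 49.8 (rank 869 in the IDR list). It scored 29.8 in replicate 1 (rank 424) and 25.2 in replicate 2 (rank 1244), so replicate 1 placed it higher. The body of plx-1 spans 24875 bp, longer than 99.4% of protein-coding genes, and held 10 pooled peaks but 0 IDR peaks. The strongest of these scored 12.5 (rank 7777) and lay 5295 bp downstream of the gene start, 493 bp from an internal transcript start.

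The receptor gene for MAB-20, plx-2 (WBGene00004048, chrII:14417855-14424891, minus strand), had 2 IDR peaks in its window of 20 kb, and neither lay nearest to it. The stronger, 16453 bp upstream at chrII:14441172-14441515, lay 65 bp upstream of smg-8, which belongs to nonsense-mediated mRNA decay. It had the highest signal of the 10 peaks, 62.8, and ranked 217 in replicate 1 and 1462 in replicate 2. The other, 19590 bp from the start and the peak closest to the 20 kb limit, lay in introns of the chromatin remodelling gene nurf-1 and was nearest to F26H11.4 (signal 45.5, ranks 1904 and 901). The strongest pooled peak nearer to plx-2 than these, 8941 bp upstream, scored 16.1 (rank 5299) and ranked 25669 in replicate 1 and 4967 in replicate 2. Its nearest gene start was again not plx-2 but K04B12.2, 4140 bp away. The nearest IDR summit beyond the limit at any of the 9 genes lay 23603 bp from the start of smp-2 (signal 45.0).

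**Figure D2:**
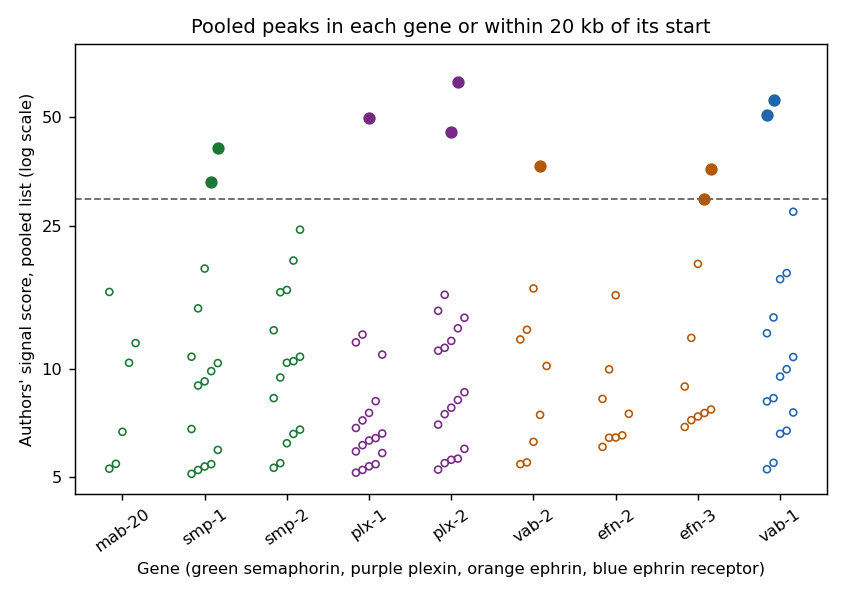
Authors' signal score (log scale) of each pooled peak in the gene or within 20 kb of its start, coloured by protein class. Filled points are IDR peaks, open points are other pooled peaks, and the dashed line is the lowest signal of the IDR list, 29.6. All points of mab-20, smp-2 and efn-2 lie under the line, with smp-2 reaching 24.4 and the others 16.4 and 16.0.

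Among the ephrin genes, vab-2 (WBGene00006869, chrIV:3761195-3766826, minus strand) had 1 IDR peak, at chrIV:3768756-3769099. Its summit lay 2102 bp upstream, just beyond the 2000 bp promoter window, in the 17383 bp between vab-2 and glct-6. It scored 36.7 (rank 1565 in the IDR list), with 12.7 in replicate 1 (rank 2247) and 24.0 in replicate 2 (rank 1373). The summit had the same position in the pooled list and in replicate 1 and was 20 bp away in replicate 2. The strongest peak of the pooled list inside vab-2 lay in an intron 1121 bp from its start (signal 16.7, rank 4985).

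For efn-2 (WBGene00001163, chrIV:10576350-10578288, plus strand) the strongest pooled peak lay 3746 bp upstream and scored 16.0 (rank 5318), with ranks of 8157 and 9887 in replicates 1 and 2. The strongest peak of replicate 2 at this gene was a different one, 415 bp inside the gene (rank 4415). The nearest IDR summit lay 64290 bp from the start of efn-2, the largest such distance among the 9 genes.

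The IDR peaks counted for efn-3 (WBGene00001164, chrX:13475876-13477456, minus strand) both lay in introns of sad-1, which encodes a kinase of neuronal polarity and synapses, 16553 and 18598 bp upstream of efn-3. The nearer scored 36.1 and ranked 2973 in replicate 1 and 1385 in replicate 2. The farther scored 29.7, rank 2188 of 2197, and ranked 1201 in replicate 1 and 6198 in replicate 2, the largest difference in rank among the 10 peaks. A pooled peak 226 bp upstream of efn-3 itself scored 12.2 (rank 8055) and ranked 12449 and 27248 in the replicates.

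The ephrin receptor gene vab-1 (WBGene00006868, chrII:4572000-4590970, plus strand), which acts in neuroblasts and neurons under the closing epidermis, was the only member with more than 1 IDR peak nearest to its start. Both lay in long introns. The stronger, at chrII:4575598-4575941, had its summit 3770 bp downstream of the start in intron 2 (3919 bp) and a signal of 55.8 (rank 686). It scored 16.7 in replicate 1 (rank 1415) and 37.7 in replicate 2 (rank 566).

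The other vab-1 peak, at chrII:4579507-4579850, lay 7679 bp downstream in intron 4 (3123 bp), with a signal of 50.9 (rank 826). It scored 17.7 in replicate 1 (rank 1277) and 34.2 in replicate 2 (rank 706). Replicate 2 ranked both vab-1 peaks higher than replicate 1 did, and replicate 1 put the intron 4 peak ahead while replicate 2 put the intron 2 peak ahead. Summits in the replicates lay within 7 bp of the pooled ones. The gene body held 10 pooled peaks in all. A further intronic one, 1440 bp from the start, scored 27.3 with a −log10 q-value of 3.22 and ranked 2496, below the 2197 of the IDR list. It ranked 8529 in replicate 1 and 2667 in replicate 2.

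**Figure D3:**
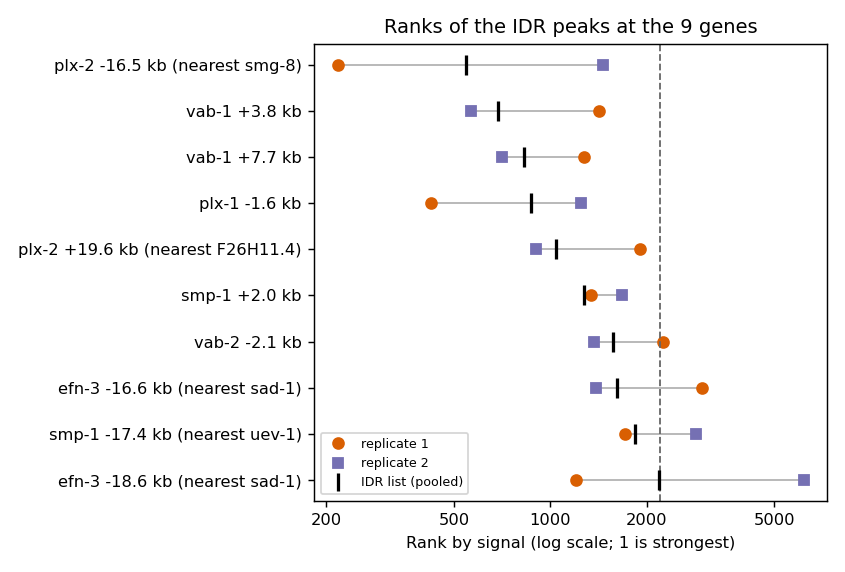
Rank by signal (log scale, 1 is strongest) of the 10 IDR peaks in replicate 1 (circles), replicate 2 (squares) and the IDR list (black ticks), labelled by gene and distance from its start. The dashed line marks rank 2197. Both replicates lie left of it for 6 peaks, among them those of plx-1, smp-1 in the first intron and both of vab-1.

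Each of the 10 peaks overlapped a peak of both replicates' relaxed lists, counting 1 bp of overlap as a match. The IDR list was itself made from both replicates, so this match was largely set by the selection and is no separate support. The replicate summits of the 10 peaks lay at most 87 bp from the pooled summit. Of the 10, 6 ranked within the first 2197 of both replicates, and of the 5 nearest to a member 4 did, vab-2 missing it through rank 2247 in replicate 1. Over all nuclear IDR peaks the share was 63.8%. Replicate 1 ranked 5 of the 10 higher and replicate 2 the other 5. The peaks were of middling strength within the IDR list: the median signal was 43.2 (29.7 to 62.8), against 44.1 over nuclear IDR peaks, whose highest was 361. Each peak was 344 bp wide, as were 81% of IDR peaks, so width does not tell these loci apart.

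Weaker recovery was described with the pooled relaxed list. The 9 loci held 6 to 19 pooled peaks, with a median of 15 against 11 over all protein-coding genes, and 117 distinct peaks in all. Of the 117, 50 were matched in both replicates (42.7%), against 40% of nuclear pooled peaks. Composites were held by 24 of the 117 (20.5%), against 17.4% of the nuclear pooled list, with 5 of 15 at smp-2, 5 of 19 at plx-2 and 0 of 10 at efn-3. Both shares lay near those of the whole list. The strongest pooled peak of a locus had a median signal of 36.7 over the 9 genes and 30.2 over all genes.

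The counts over the members were read beside the same counts over all 19973 nuclear protein-coding genes. An IDR summit in the gene or within 20 kb of its start was found for 6 of 9 members, against 51.1% of genes, and the median number of such summits was 1 in both. In the promoter window, a summit was found for 1 of 9, against 9.59% of genes. With the start of any annotated transcript the count was again 1 of 9, against 10.3% of genes. The promoter shares lay near those of all genes.

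By the nearest gene start, 4 of 9 members had a peak, against 9.43% of genes, and an IDR summit between gene start and gene end was found for 2 of 9, against 2.66%. The members are also longer and more widely spaced than most genes. The median length was 6870 bp for the members and 2027 bp for all genes, and the median distance to the next gene upstream was 8756 bp and 1058 bp. Among genes with at least 8000 bp to the next gene upstream, 18.8% had an IDR summit nearest to their start, and 4 of the 7 members of this kind did. Among genes of at least 5000 bp, 11% had an IDR summit in the body, and 2 of the 7 members of this kind did, smp-1 and vab-1. Both limits were set after the values were seen, and the part of gene spacing in the counts was not tested.

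**Figure D4:**
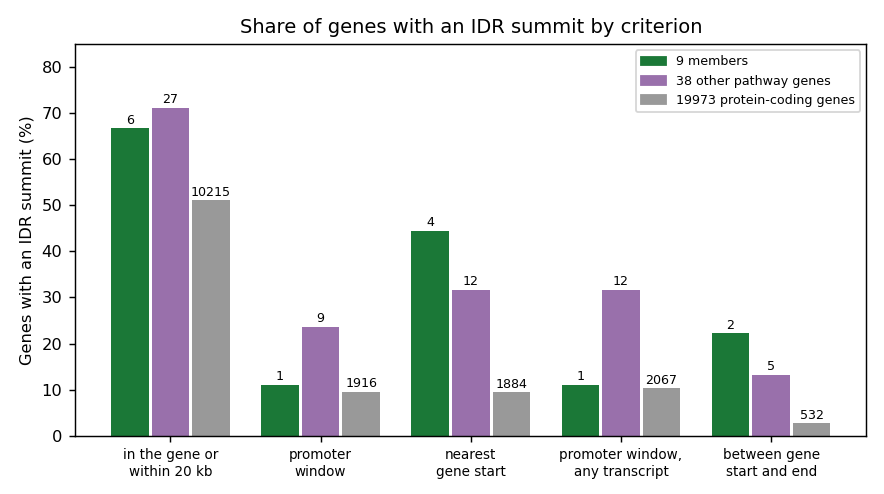
Percentage of genes with an IDR summit under 5 criteria, for the 9 members, 38 other pathway genes and all 19973 protein-coding genes, with the number of genes above each bar. The members stand at 1 of 9 for both promoter windows and at 4 of 9 for the nearest gene start.

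Other genes of semaphorin, plexin and ephrin signalling were taken from a list of 38: co-receptors and ligands, regulators of the cytoskeleton, and the translation and TOR branch linked to plexin signalling. Of these, 9 had a promoter-window summit in the IDR list, 23.7% against the 9.59% of all genes. The list was chosen with earlier results of these data known, so the shares are a description and not an independent comparison. Among regulators of actin, wve-1, which encodes the WAVE protein, had the strongest of these promoter-window peaks, 631 bp upstream at chrI:11930051-11930256 (signal 147, ranks 63 and 112 in replicates 1 and 2). That summit also fell in the window of R06C1.4. The WAVE complex gene gex-3 had a peak 140 bp upstream (signal 34.7) and the cofilin gene unc-60 had one 411 bp upstream (signal 40.0). The SH2-SH3 adaptor gene nck-1 had one 1527 bp upstream (signal 44.5, ranks 3148 and 616), and the Rac-like GTPase gene mig-2 had one 1767 bp upstream (signal 31.8).

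In the translation branch, let-363, the TOR kinase gene, had a peak 1484 bp upstream (signal 66.7, ranks 1295 and 333) that also fell in the window of mrpl-47. The gene gcn-1, for a regulator of translation, had a peak 276 bp upstream (signal 31.1). The ankyrin gene unc-44 (1149 bp upstream, signal 33.8) and vpr-1, a gene of the VAP family (780 bp upstream, signal 52.8), complete the 9. The peaks of wve-1, mig-2, unc-60, let-363 and vpr-1 each fell in the window of a neighbouring gene as well, and those of wve-1, mig-2 and let-363 lay nearer to the start of another gene. With any transcript start 12 of 38 had a summit (31.6%), against 10.3% of all genes. The genes added were max-2, ptp-3 and unc-33 (named after their values were seen). The ephrin gene efn-4 had 0 IDR summits in the gene or within 20 kb of its start, and lad-2, an L1-family gene, had 1, outside the promoter window.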

How the data were processed

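Peaks came from chromatin immunoprecipitation sequencing in 2 biological replicates of 1 group. Per the text records deposited with the samples, relaxed lists were made for each replicate and for both pooled against a control alignment, and the optimal IDR list from these. The sources used here do not name the aligner, the peak caller or the IDR threshold. The deposited score of a peak is the authors' signal value, used only within a list. The deposited −log10 q-value has a ceiling of 3.66 in the pooled list, shared by all IDR peaks. All 2197 IDR peaks were the pooled peaks of highest score. The lists carry no read counts, so the depth behind each sample is unknown. The replicates shared 80 positions and 0 peaks of equal position and score, and nothing beyond their numbers says how separate the cultures were.

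Summits were placed on Ensembl release 115 genes (WBcel235, the same assembly as ce11), and sequence came from the NCBI copy of that assembly. A gene start is the annotated gene boundary. Replicate peaks were matched by 1 bp of overlap, taking the strongest. Counts were computed in Python 3.11.15 with numpy 2.4.6 and pandas 2.3.3, and figures drawn with matplotlib 3.10.9. The placing rules were checked on toy coordinates. The members, the list of 38 genes and the motifs were chosen with earlier results of these data known. All members, all their IDR peaks and all listed genes with a promoter summit are named. No test was run. Alternatives were each replicate alone, the stronger 50% of IDR peaks, other windows and distances, and 50% overlap. Lists on ce10 were not used.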

Additional observations from a re-analysis of the deposited data

How the results depend on the processing

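Each replicate's 2197 strongest peaks alone gave 5 to 6 members with a summit in the gene or within 20 kb, 8 to 9 distinct peaks, 2 peaks with a composite, and plx-1 as the 1 member with a promoter summit. Without replicate 2, vab-2 had none. For the listed pathway genes the same lists gave 8 to 10 with a promoter summit, but only 5 (gex-3, let-363, unc-60, vpr-1 and wve-1) had one in the IDR list and in each replicate alone. The stronger 50% of the IDR peaks left 3 members (plx-1, plx-2 and vab-1), 5 peaks, 1 peak with a composite and 4 pathway genes. A promoter window of 1000 bp gave 0 members and 5 pathway genes, and one of 5000 bp gave 2 members (plx-1 and vab-2) and 14 pathway genes. A wider window can only add genes in any set. No share over all genes is given for these windows, single replicates, the stronger 50% or 10 kb. Counts at those settings therefore describe only how the results move. By the nearest gene start the count of members was 4, against 9.43% of all genes. A distance of 10 kb left 5 peaks, those nearest to a member, at 4 members. Composites within 50 bp of the summit were held by 1 peak. All 10 peaks were found in both replicates at 50% overlap too, a match that the selection of IDR peaks largely sets. The read depth is unknown, so the lack of an IDR peak at mab-20, smp-2 and efn-2 does not show that MAB-5 is absent there. No paired analysis was possible because there is 1 group.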
